A study of Mus musculus with 18 samples.

Results

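Mouse induced pluripotent stem cells (iPSC) deficient in Dnmt3a and Dnmt3b were compared with control iPSC lines on Agilent 2-colour expression arrays. The deficient side was 3 clones, named 8, A6 and B2, whose RNA the labels give without mention of differentiation, and the control side was 4 lines numbered 3 to 6. These members took 18 of the 36 channels: 2 channels for each deficient clone and 3 for each control line, and every one of the 18 arrays held 1 of them. The partner of a deficient clone (Cy5) on its first array was RNA of mouse embryonic fibroblasts (MEF), and on its second array, where the clone was in Cy3, that of V6.5, an established line of mouse embryonic stem cells (ESC), while each control line was read on 3 arrays beside the 3 deficient clones in a state labelled as showing some differentiation, called differentiating clones here. All iPSC lines had been grown on irradiated MEF feeders and passaged on gelatin without new feeders before RNA was taken. The labels name neither the alleles, the strain, the reprogramming factors nor the parent cells of the control lines. A clone or line is 1 culture here, so p-values against control lines measure the spread between these lines. Those against V6.5 ESC use the spread of ratios pooled over all 18 arrays, with the arrays of a line counted separately. They do not measure the spread between the 3 deficient clones alone.

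Dnmt3a and Dnmt3b are the enzymes that add methyl groups to unmethylated CpG dinucleotides, a CG step in the DNA sequence. Dnmt3l, which has no catalytic activity, binds and stimulates both, and Dnmt1, guided by Uhrf1, copies methylation to the new strand after DNA replication. In early embryos and in pluripotent cells this system keeps promoters of germline genes, imprinted loci and some repeats methylated and silent.

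Levels are log2 signals, 1 value per line, and a difference is deficient minus control in log2 units ± its standard error (SE) unless another comparison is named. Calls were made at 0.05 on the adjusted p (limma, two-sided, Benjamini-Hochberg over 24966 genes). Deficient and control arrays were scanned on different days and slides, so group and scan day cannot be told apart in that comparison. Probes well above background made up 69.7 to 78.9% per channel on the first day, with the deficient clones, V6.5 ESC and MEF, and 75.6 to 92.6% on the second, with the control lines and differentiating clones. Control line 6 stood apart: 541 genes lay at least 1 log2 unit from the mean of the other control lines, against 16 to 56 genes for each of the others, and clone 8 was the most distant deficient clone with 143 genes.

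The summed level of 9 markers of pluripotent stem cells was 18.21 to 18.39 on the log2 scale in the deficient clones and 17.75 to 18.25 in the control lines. It was 18.97 in V6.5 ESC and 12.86 in MEF. Of 10 fibroblast or feeder markers, 9 were called lower in the deficient clones and none was called higher, beside 31.2% and 15.2% of all genes. Their summed levels were 14.50 to 14.56 in deficient clones, 15.23 to 16.28 in control lines, 14.33 in V6.5 ESC and 19.84 in MEF. Clone 8 stood apart for markers of primitive or visceral endoderm, the extraembryonic layer that absorbs nutrients for the early embryo. The summed level of 7 such markers reached 13.75 in the deficient clones, with the lowest clone at 11.29, beside 11.16 to 12.30 in the control lines and 11.33 in V6.5 ESC. For Cubn, an endocytic receptor, clone 8 read 12.84, beside 9.13 for A6 and 9.01 for B2. Amn, its partner, was at 11.20 beside 8.70 and 8.67, and the endoderm factor Gata6 at 10.91 beside 9.28 and 8.91. The deficient RNA of clone 8 thus held these markers although its label mentions no differentiation, and their part in the differences was not tested. Fewer fibroblasts and less of their RNA per cell cannot be told apart in such bulk samples.

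The targeted genes come first. Dnmt3a was at 8.97, 9.86 and 9.77 in clones 8, A6 and B2, against 11.34, 11.19, 10.52 and 11.02 in control lines 3 to 6, 11.52 in V6.5 ESC and 9.82 in MEF. No deficient clone reached the lowest control line, and the difference was -1.49 ± 0.276 (limma adjusted p = 0.00523). The same clones in the differentiating state were at 9.58, 9.34 and 9.11, which differed from the control lines read on the same day by -1.68 ± 0.210 (limma adjusted p = 0.0260). Within arrays, deficient clones lay below V6.5 ESC by 1.90 on the log2 scale, a difference of -1.90 ± 0.369 (limma adjusted p = 0.0058). Without control line 3 or 4, Dnmt3a was no longer called in all 3 of these comparisons. The other 2 Dnmt3a probes differed by -2.31 and -1.10, and all 3 probes stayed well above background in all 6 channels of deficient clones.

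Dnmt3b did not show such a difference. It was at 12.34, 13.40 and 13.50 in the deficient clones and at 13.40, 13.78, 14.00 and 12.41 in the control lines, with V6.5 ESC at 11.90 and MEF at 8.04. Clone 8 and control line 6 were the low lines of their groups, and the groups overlapped (-0.32 ± 0.449, limma adjusted p = 0.594). The sign turned without clone 8 and without normalization between arrays. The labels do not say which exons were deleted, so a probe outside the deleted part cannot check the label.

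Dnmt3l, Dnmt1 and Uhrf1 were called higher. Dnmt3l was at 15.35, 16.05 and 15.83 in the deficient clones and 13.97, 14.21, 14.17 and 14.60 in the control lines (1.50 ± 0.204, limma adjusted p = 0.00152), and V6.5 ESC was at 15.39. Dnmt1 rose by 0.62 ± 0.0932 and Uhrf1 by 0.94 ± 0.0870, and neither passed the test against V6.5 ESC within arrays (limma adjusted p = 0.172 and 0.0592), although Uhrf1 did with the deposited ratios (limma adjusted p = 0.0194). Of 30 measured genes of DNA methylation and methyl-CpG binding, 10 were called higher, 4 lower and 16 not called (33.3% and 13.3%, beside 15.2% and 31.2% of all genes), with a median difference of 0.04. The count of falls was 2 without clone 8 or B2 or control line 3 or 4. The V6.5 ESC level lay on the deficient side of all control lines for 12 of these 14.

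Over all 24966 genes, 11577 were called (46.4%), 3796 of them higher (15.2%) and 7781 lower (31.2%) in the deficient clones, and the lines did not overlap for 12979 genes (52%). A difference of at least 1 log2 unit was called for 422 genes (1.69%), 204 higher and 218 lower. With the plain mean of a line's channels, which made fewer false calls than the fitted line values on simulated data, 7596 genes were called, 7431 of them among the 11577. The split between higher and lower rests on the normalization between arrays: without it, 97.22% of called genes were higher, against 32.8% with it, and the median difference of all genes was 0.42 against -0.06. Among the gene lists described here, the medians of the germline, X-linked, 2-cell and core pluripotency lists were 0.92, 1.12, 1.20 and 0.87 without it. Since the median of all genes rose to 0.42, the sign of medians already above 0 gives no check. Those of the fibroblast, simple epithelium, smooth muscle and glycolytic lists stayed below 0. The medians of the Hox, class I, endoderm, mesoderm, neural and trophoblast lists changed sign. So did those of the primed epiblast, paternally expressed imprinted, ribosomal protein and housekeeping lists.

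V6.5 ESC, read on the same arrays as the deficient clones, give a check on the day. For 10717 of the 11577 called genes (92.6%), V6.5 ESC lay beyond all control lines on the side of the deficient clones, for 705 (6.09%) it lay within their range and for 155 on the other side. Over all 24966 genes it lay on the deficient side for 16731 (67%) and within the range for 26.9%. Among the 422 genes with the larger differences the same counts were 387, 32 and 3. A stricter split, with the 3 deficient clones, V6.5 ESC and MEF all above or all below the 7 second-day values, held for 6255 called genes (25.1% of all genes and 54% of the called ones). The bars of V6.5 ESC by side show this for both sets and for the genes that were also called against V6.5 ESC.

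**Figure D1:**
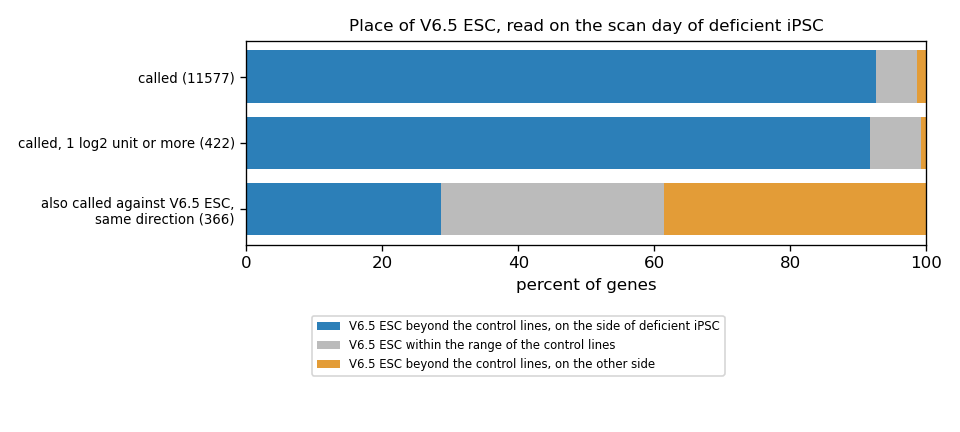
Share of genes (percent, horizontal axis) by where the V6.5 ESC level lay relative to the range of the 4 control lines, for all called genes, those of at least 1 log2 unit, and those also called against V6.5 ESC in the same direction. V6.5 ESC lay on the deficient side for 92.6% of called genes and for 28.7% of the last set. Genes of the last set were chosen for lying away from V6.5 ESC, which by itself lowers that share.

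Within arrays of the first day, apart from the dye correction, 1350 genes were called between deficient clones and V6.5 ESC (5.41%), 884 higher (3.54%) and 466 lower (1.87%). V6.5 ESC is 1 reference RNA, which leaves its spread unmeasured. It was always in Cy5 and MEF always in Cy3, so in this fit the dye was estimated on second-day arrays alone. Each difference from V6.5 ESC thus carries a dye correction from the other day. Without a dye term 1526 genes were called. The count of 1350 was 384 without clone B2, 443 without clone A6 and 756 without control line 4, which enters through the dye and the shared error. On the second day, 1199 genes were called between the differentiating clones and the control lines (4.8%). This count was 1 without control line 3, 27 without control line 4 and 3469 without control line 6, and 523 with plain means. By size alone, the typical (median) gene differed by 0.197 against control lines, 0.0813 against V6.5 ESC and 0.0667 in the case of differentiating clones against control lines.

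Genes called against control lines and also, in the same direction, against V6.5 ESC numbered 366 (1.47%), 253 higher and 113 lower, while 262 were called in opposite directions. Both comparisons share the deficient clones, so the count is a description. It was 94 without clone B2, 101 without clone A6, 167 without control line 4, 207 without control line 3 and 719 without control line 6, and 267 with plain means, 253 of them among the 366.

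**Figure D2:**
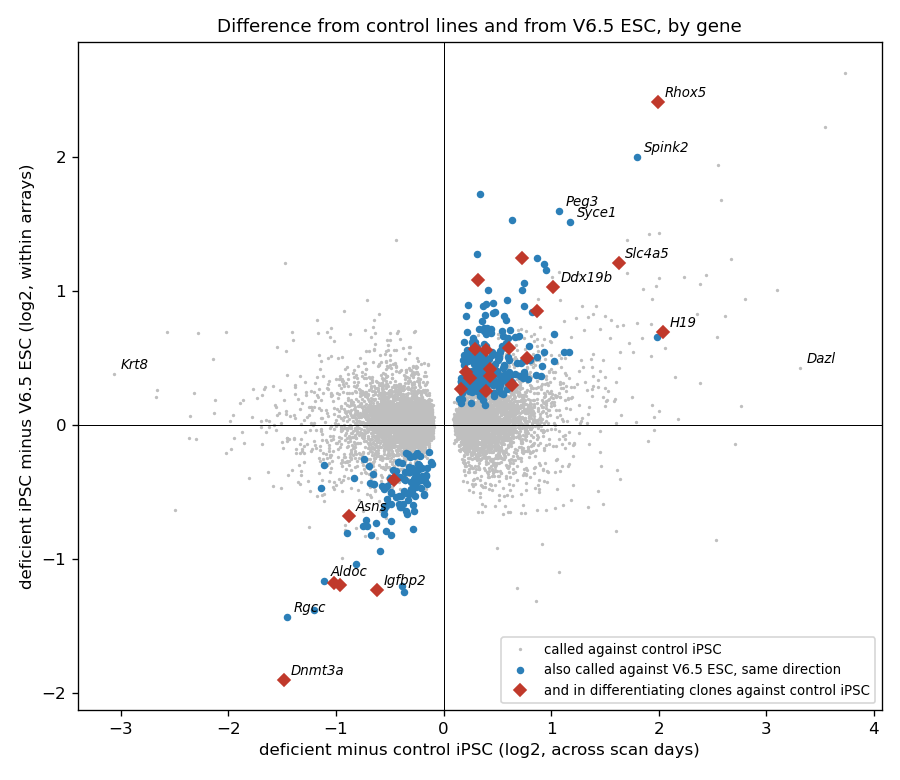
Each dot is a gene called between deficient and control iPSC, placed by its difference from control lines (horizontal, log2, across scan days) and from V6.5 ESC (vertical, log2, within arrays). Blue dots are the genes also called against V6.5 ESC in the same direction, and red diamonds are the 24 that also passed between differentiating clones and control lines. Rhox5 lies far up on both axes and Dnmt3a far down on both, while Krt8 and Dazl lie near 0 on the vertical axis.

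The largest rises of this kind were picked among genes whose deficient and control lines did not overlap, as in 52% of all genes. They were H19, Rhox5, Sltm, Spink2, Slc4a5, Syce1, Ino80 and Peg3. Rhox5, an X-linked homeobox gene of the reproductive tract, was at 16.87, 17.44 and 17.46 in the deficient clones, against 14.31, 15.39, 15.84 and 15.49 in the control lines and 14.73 in V6.5 ESC. All 3 deficient clones lay above every control line, which the choice required. The difference was 1.99 ± 0.367 (limma adjusted p = 0.00507) from control lines and 2.41 ± 0.534 (limma adjusted p = 0.0137) from V6.5 ESC. In the differentiating state the clones were at 17.08, 18.03 and 18.26, again above every control line.

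Syce1, which encodes a protein of the central element that joins paired meiotic chromosomes, was nearly even across the deficient clones, at 13.03, 13.18 and 13.04. Control lines were at 11.81, 11.59, 11.75 and 12.48, with line 6 the highest, and V6.5 ESC at 11.55. The difference was 1.18 ± 0.205 from control lines (limma adjusted p = 0.00411) and 1.52 ± 0.207 from V6.5 ESC (limma adjusted p = 0.000506). The differentiating clones, at 12.18 to 12.25, lay within the control range. The probe lies on chromosome 7 at 137194617 to 137194676 in mouse build mm7.

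Slc4a5, a sodium bicarbonate cotransporter, was at 11.05, 11.18 and 11.46 in the deficient clones, 9.28, 9.43, 9.74 and 9.97 in the control lines and 9.97 in V6.5 ESC. It remained above the control lines in the differentiating clones, at 10.54, 11.10 and 11.40. Spink2, a serine protease inhibitor of testis, was at 10.61, 11.99 and 11.96 against 9.78, 9.96, 9.81 and 9.33, clone 8 standing lowest of the deficient clones (1.80 ± 0.358, limma adjusted p = 0.00692, and 0.0502 with plain means). Ino80, a chromatin remodelling ATPase, rose by 1.17 ± 0.0678 and lay above V6.5 ESC by 0.55 ± 0.103. For Sltm, an RNA-binding nuclear protein, the difference was 1.98 ± 0.164 from control lines and 0.65 ± 0.179 from V6.5 ESC, the last without a call in the deposited ratios (limma adjusted p = 0.0521).

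The 8 largest falls of this kind, picked likewise among genes without overlap of the lines, were Dnmt3a, Rgcc, Myof, Aldh3b1, Aldoc, Rab12, Itm2a and Evpl. Rgcc, a regulator of cell cycle progression, was at 9.56, 9.27 and 8.98 in the deficient clones, 10.98, 11.02, 10.84 and 10.05 in the control lines and 10.78 in V6.5 ESC. Myof, a membrane repair protein, was at 9.98, 10.56 and 10.43 against 11.66, 11.85 and 11.60 in control lines 3 to 5, with V6.5 ESC at 11.78 and MEF at 15.03. One of 2 other Myof probes differed by 0.38, the opposite way, and the other by -0.74. In both genes control line 6 was the lowest control line and lay above every deficient clone, which the choice required. Evpl, a desmosomal linker protein, differed by -0.97 ± 0.180 from control lines, by -1.19 ± 0.224 from V6.5 ESC and, in the differentiating clones, by -0.76 ± 0.143 from control lines. Rab12, a small GTPase, was at 10.26, 10.41 and 10.27 against 11.41 to 11.44 in the control lines, and V6.5 ESC, at 10.65, lay nearer to the deficient clones. Its other 2 probes differed by -0.04 and -0.01 without a call, so the fall is that of 1 probe.

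There were 24 genes (0.0961%) called in the same direction in all 3 comparisons, 18 higher and 6 lower, a count added after the data were seen. It was 0 without control line 3 or 4 and 143 without control line 6, and 7 of the 24 remained with plain means. Named rises were H19, Rhox5, Slc4a5, Ddx19b, Arl13b, Klhl22, Ash2l, Clcn7, Atp5k, Impdh1, Sec11a, Atp6v1h, Pmpca, Scp2 and Spata2. The falls were Dnmt3a, Itm2a, Evpl, Asns, Igfbp2 and the RIKEN clone D830030K20Rik, and the other 3 rises were 4930432K21Rik and transcripts without a gene symbol. With plain means the calls against control lines of Atp6v1h, Pmpca, Scp2, Sec11a and Spata2 were lost, and with the deposited ratios those against V6.5 ESC of Arl13b, Atp5k, Impdh1, Pmpca and Scp2.

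Ddx19b, an RNA helicase of messenger RNA export, was at 13.51, 13.05 and 12.98 in deficient clones against 12.02, 11.95, 12.52 and 12.14 in control lines and 12.18 in V6.5 ESC, but its other probe differed by -0.05 without a call. Ash2l, a subunit of histone H3 lysine methyltransferase complexes, rose by 0.43 with levels of 14.37 to 14.40 in the deficient clones, while its other probe was 0.11 higher without a call. Asns, asparagine synthetase, was at 15.90, 15.30 and 15.38 against 16.60, 16.45, 16.24 and 16.32. Igfbp2, a secreted binder of insulin-like growth factors, was at 15.24, 14.88 and 15.05 against 15.76, 15.57, 15.55 and 15.83, with V6.5 ESC at 16.25 and MEF at 15.56.

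**Figure D3:**
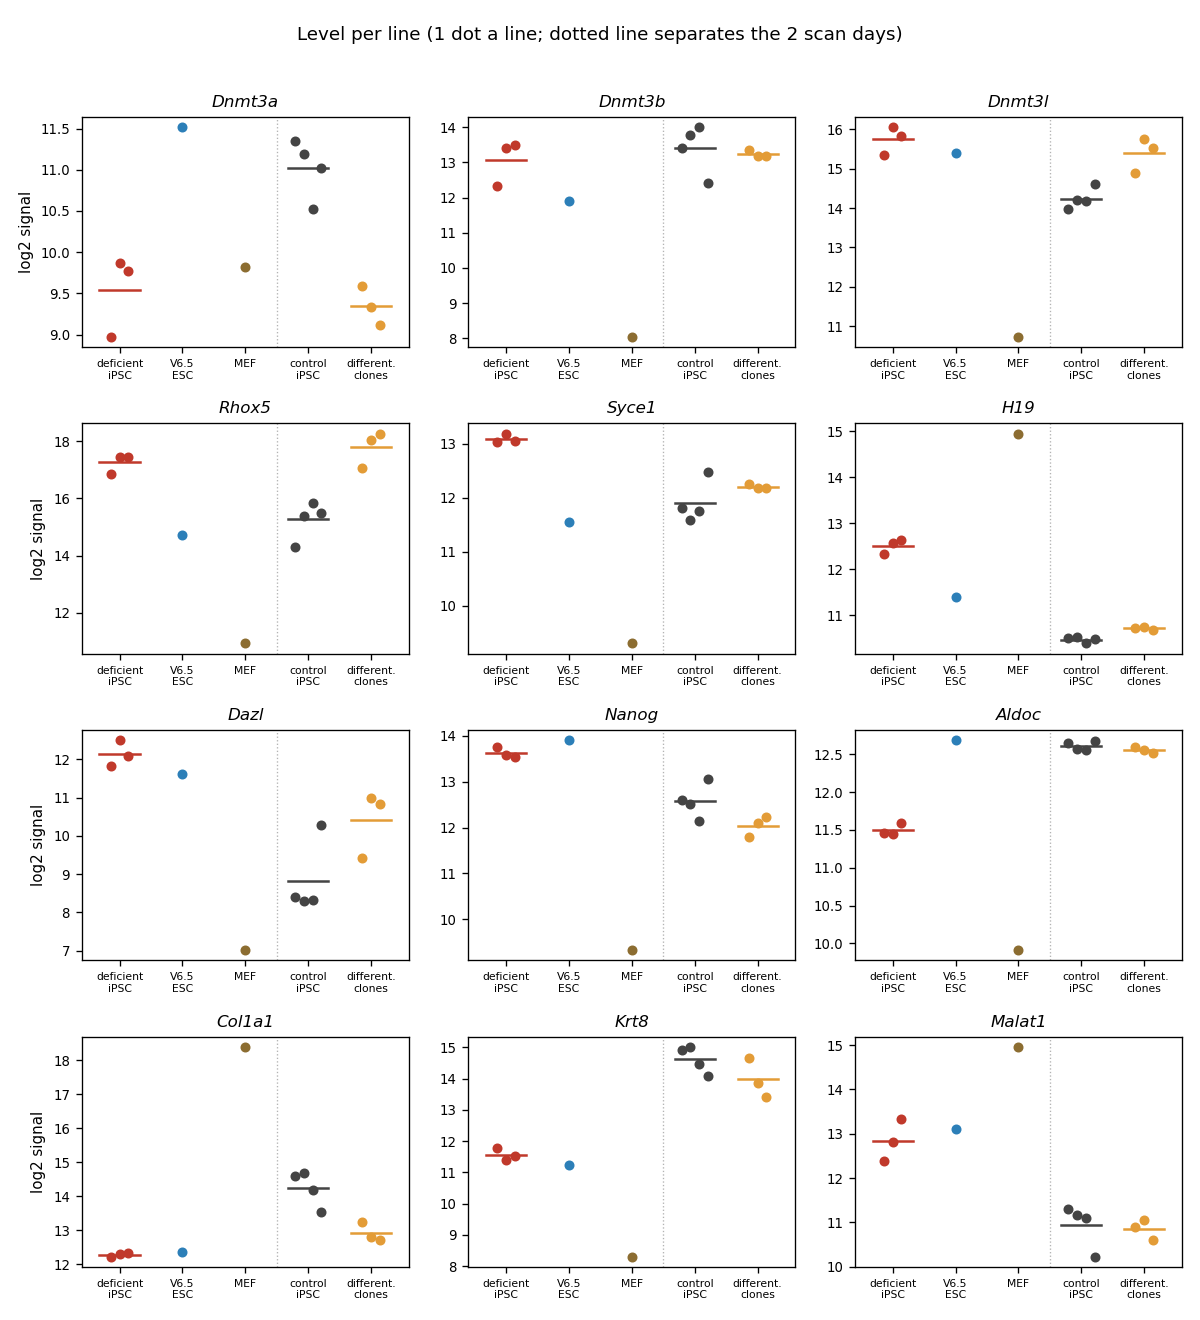
Log2 signal per line for 12 genes, 1 dot a line, with bars at the mean of groups of more than 1 line and a dotted line between the scan days. Dnmt3a is low and Rhox5 high in deficient and differentiating clones alike. For Krt8, Col1a1, Nanog and Malat1, V6.5 ESC lies by the deficient clones.

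Germline genes called higher outnumbered those called lower. Of 59 measured genes of genome defence and meiosis, 29 were called higher and 8 lower (49.2% and 13.6%, beside 15.2% and 31.2% of all genes), with a median difference of 0.56 beside -0.06. With plain means 28 were higher, and without clone B2 the lower ones numbered 5. V6.5 ESC lay on the deficient side of all control lines for 33 of these 37 genes. Against V6.5 ESC within arrays 3 of the 59 were called higher and 2 lower, beside 3.54% and 1.87% of all genes, with a median of 0.04. Syce1 and Tuba3a were the only genes called higher in both.

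The 250 bases before the annotated start of 4 such genes are shown, in lower case with each CpG, the step that Dnmt3a and Dnmt3b methylate, in capitals. They are Dazl, Hormad1 and Syce1 from the germline list and Rhox5, an X-linked family member called against V6.5 ESC. The sequences are from RefSeq on build GRCm38.p6, 5′ to 3′ on the gene's strand, at chr17:50293621-50293870 (minus), chr3:95559427-95559676 (plus), chr7:140787855-140788104 (minus) and chrX:37754358-37754607 (plus).
Dazl: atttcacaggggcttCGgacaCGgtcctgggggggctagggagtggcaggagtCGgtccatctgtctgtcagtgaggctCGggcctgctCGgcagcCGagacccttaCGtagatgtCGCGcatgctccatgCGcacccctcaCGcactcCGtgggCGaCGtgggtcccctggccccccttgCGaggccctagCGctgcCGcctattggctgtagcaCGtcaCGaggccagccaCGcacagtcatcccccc
Hormad1: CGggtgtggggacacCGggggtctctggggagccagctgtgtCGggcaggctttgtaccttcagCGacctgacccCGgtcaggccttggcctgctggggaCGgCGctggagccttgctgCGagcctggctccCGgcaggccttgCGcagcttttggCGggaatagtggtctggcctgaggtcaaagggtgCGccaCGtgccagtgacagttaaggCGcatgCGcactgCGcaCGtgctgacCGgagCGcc
Syce1: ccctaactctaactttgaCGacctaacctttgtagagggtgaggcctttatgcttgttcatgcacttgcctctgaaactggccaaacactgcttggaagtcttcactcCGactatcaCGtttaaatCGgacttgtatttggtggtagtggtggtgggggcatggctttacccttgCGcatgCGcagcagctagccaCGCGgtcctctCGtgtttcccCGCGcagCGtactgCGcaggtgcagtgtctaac
Rhox5: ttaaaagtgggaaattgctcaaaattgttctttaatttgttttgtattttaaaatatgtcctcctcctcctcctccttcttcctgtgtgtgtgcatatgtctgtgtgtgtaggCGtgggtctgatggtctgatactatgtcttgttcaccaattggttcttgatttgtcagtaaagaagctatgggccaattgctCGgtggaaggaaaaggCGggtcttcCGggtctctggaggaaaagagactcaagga

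CpG number differed widely among them. Dazl has 20 in this window, Hormad1 19, Syce1 13 and Rhox5 4. Of all 32851 promoters in the RefSeq set, 17.9% hold at least as many as Dazl, 19.7% as Hormad1, 31.5% as Syce1 and 62.2% as Rhox5. Over the germline genes called higher, 25 of 29 matched the table, with a median of 14 CpG, and the other measured germline genes had a median of 13, beside 6 over all promoters. The E-box CACGTG was found on either strand in 28% of the 25, in 34.62% of the other germline genes and in 6.02% of all promoters. The motif GCGGGAA, searched on both strands, was in 28% of the 25, in 15.38% of the others and in 3.82% of all. Both motifs occur in the Hormad1 window, and neither was found in the other 3 windows. Methylation was not measured on these arrays.

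Dazl, an RNA-binding protein of germ cells, was at 11.82, 12.49 and 12.10 in the deficient clones and at 8.40, 8.30 and 8.32 in control lines 3 to 5. Control line 6 was at 10.28, between the groups, and V6.5 ESC at 11.61 was near the deficient clones (0.42 ± 0.663 within arrays, limma adjusted p = 0.822). Hormad1, a protein of meiotic chromosome axes, had the same order: 11.45 to 12.29 in the deficient clones, 8.37 to 8.67 in control lines 3 to 5, 10.46 in control line 6 and 10.69 in V6.5 ESC. Smc1b, the meiotic cohesin subunit, was at 13.58, 13.75 and 14.24 against 10.41, 10.83, 10.86 and 12.86, and Stra8, a factor of meiotic entry, at 15.16, 14.72 and 14.93 against 12.28, 11.48, 10.77 and 14.39. Control line 6 was thus the highest control line for all 4, below every deficient clone. Stra8 lost its call without any 1 line other than control line 6 (limma adjusted p of 0.0599 to 0.0845). Without control line 6, 37 of the 59 were called higher.

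Not every germline gene was high. Sycp3, of the chromosome axis, was at 9.70, 9.94 and 9.94 in deficient clones and 10.05 to 11.30 in control lines, with the lines not overlapping and no call (-0.58 ± 0.302, limma adjusted p = 0.162). Tdrd1, of the piRNA pathway, fell by 1.06 on the log2 scale, a difference of -1.06 ± 0.105, and was lower in the differentiating clones too (-0.96 ± 0.147, limma adjusted p = 0.0301). Piwil2, a protein that binds piRNA, rose by 1.12 ± 0.118, and Ddx4, a helicase of germ granules, was at 12.06 to 12.65 against 11.92 to 12.07 without a call (limma adjusted p = 0.0784).

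X-linked gene families of testis and placenta followed. Of 19 measured Rhox, Mage, Ssx and Xlr genes, 11 were called higher and none lower (57.9% higher, beside 15.2% of all genes), with a median difference of 0.65. Rhox2a was at 12.03, 11.71 and 12.19 in the deficient clones and 8.00, 7.58, 8.09 and 9.30 in the control lines. It was at 9.31 in V6.5 ESC (2.63 ± 0.791 within arrays, limma adjusted p = 0.0664) and at 9.28, 11.19 and 11.75 in the differentiating clones. Rhox5 was called against V6.5 ESC, and Rhox2a only with the deposited ratios (limma adjusted p = 0.00512). Xlr4b was at 13.22, 14.16 and 14.64 in the deficient clones, at 9.09 to 9.44 in control lines 3 to 5 and at 14.70 in control line 6, so the groups overlapped and it was not called. Members of these families are near-identical copies, so which copy a probe reads is uncertain.

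Genes of the 2-cell stage, a set that cultured pluripotent cells express in a small fraction of cells at a time, had 11 of 15 called higher and 1 lower (73.3% and 6.67%, beside 15.2% and 31.2% of all genes), with a median difference of 0.81. Zscan4c was at 10.77, 12.38 and 11.46 in the deficient clones, 7.85, 7.66 and 7.90 in control lines 3 to 5 and 10.33 in control line 6, with V6.5 ESC at 10.42. None of the 15 was called against V6.5 ESC, beside 5.41% of all genes. The count of rises was 4 without clone A6, 5 without clone B2, 6 without control line 3, 4 or 5 and 7 with plain means. Zscan4c lost its call without clone A6 (limma adjusted p = 0.0524).

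Imprinted genes moved both ways. Of 32 measured maternally expressed genes, 8 were called higher and 8 lower (25% each), and of 32 paternally expressed genes 5 and 7 (15.6% and 21.9%), beside 15.2% and 31.2% of all genes. Maternally expressed genes called higher numbered 4 without clone A6 or control line 4 and 5 without control line 3, and paternally expressed ones 9 without control line 6. H19, a noncoding RNA, was at 12.34, 12.56 and 12.64 in the deficient clones, 10.39 to 10.52 in the control lines, 10.68 to 10.74 in the differentiating clones, 11.39 in V6.5 ESC and 14.94 in MEF. Its difference from control lines was 2.04 ± 0.0784, that from V6.5 ESC 0.69 ± 0.0890 and that of differentiating clones from control lines 0.24 ± 0.0415. All first-day values of H19 lay above all second-day values. Igf2, its paternally expressed neighbour, was at 12.30 to 12.33 against 10.23 to 11.16, with V6.5 ESC at 11.72 and a within-array difference of 0.14 ± 0.255.

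Peg3, a zinc finger gene expressed from the paternal allele, was at 11.05, 10.70 and 10.87 in deficient clones, 10.16, 9.83, 9.95 and 9.26 in control lines and 9.39 in V6.5 ESC (1.60 ± 0.295 within arrays, limma adjusted p = 0.00419). Its other 2 probes differed from control lines by 0.98 and 0.03. The noncoding RNAs Meg3, Rian and Mirg, neighbours on chromosome 12, rose by 1.46 ± 0.333, 1.62 ± 0.327 and 1.07 ± 0.298. For Rian, clone 8 at 9.07 stood below A6 and B2 at 10.29 and 10.20, and control lines were at 7.95 to 8.57. In V6.5 ESC it was at 10.17, so against V6.5 ESC none of these 3 was called. Against V6.5 ESC, 7 of the 32 maternally expressed genes were called higher and 1 lower, beside 3.54% and 1.87% of all genes. Among the rises were the growth restraining adaptor Grb10 (1.60 ± 0.351) and the cell cycle inhibitor Cdkn1c (0.76 ± 0.167), neither called against control lines.

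Of 25 core pluripotency genes, 13 were called higher than in control lines, 12 were not called and none was lower (52% higher, beside 15.2% of all genes), with a median difference of 0.53. The count was 5 without clone A6, 6 without clone B2 and 8 without control line 4. Against V6.5 ESC the median was 0.02, and 4 were called higher and 2 lower, beside 3.54% and 1.87% of all genes. Nanog was at 13.76, 13.58 and 13.53 in the deficient clones, 12.60, 12.50, 12.13 and 13.07 in the control lines and 13.90 in V6.5 ESC. Sox2 was at 14.38, 14.14 and 14.16 against 13.35 to 13.73, with V6.5 ESC at 14.40, and Pou5f1, which encodes Oct4, at 14.98, 14.88 and 14.88 against 14.46 to 14.79, with V6.5 ESC at 15.21. Pou5f1 was called with all lines (0.28 ± 0.0795, limma adjusted p = 0.0253) and not without clone 8, A6 or B2 or control line 5 (limma adjusted p of 0.0597 to 0.0758).

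Some factors differed between the deficient clones and V6.5 ESC. Zfp42, which encodes the ESC marker Rex1, was at 13.65, 12.98 and 12.89 in the deficient clones and 12.81, 12.43, 12.59 and 13.11 in the control lines, so the groups overlapped. In V6.5 ESC it was at 15.72, and the within-array difference was -2.60 ± 0.212 (limma adjusted p = 5.15e-06). Klf4, a factor of the naive state, was at 15.17, 14.50 and 14.29 in the deficient clones and at 16.00 in V6.5 ESC (-1.35 ± 0.299, limma adjusted p = 0.0139), and the Nodal antagonist Lefty1 was higher than in V6.5 ESC by 1.76 ± 0.263. Klf4 was at 13.52 to 14.53 and Lefty1 at 14.63 to 15.12 in the control lines, which were not tested against V6.5 ESC. Of 26 naive pluripotency genes, 3 were called higher and 2 lower than in control lines (11.5% and 7.69%, beside 15.2% and 31.2% of all genes). Without control line 6, 10 were called higher.

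Of 25 measured glycolytic enzymes, 10 were called lower and none higher than in V6.5 ESC, beside 1.87% and 3.54% of all genes. Against control lines 8 were called lower and 1 higher, 32% and 4%, so that the share of falls was at that of all genes (31.2%), and without control line 6 it was 15 lower. Aldoc, the aldolase C isoform, was at 11.46, 11.45 and 11.59 in the deficient clones, 12.65, 12.56, 12.56 and 12.67 in the control lines and 12.68 in V6.5 ESC. The differentiating clones, at 12.51 to 12.60, lay by the control lines, and MEF were at 9.91. Its differences were -1.11 ± 0.0534 from control lines (limma adjusted p = 0.000168) and -1.17 ± 0.0611 from V6.5 ESC (limma adjusted p = 2.81e-08). The other Aldoc probe differed from control lines by only -0.29.

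Gpi1, glucose-6-phosphate isomerase, was at 16.60, 16.43 and 16.51 against 17.24, 17.06, 16.95 and 17.49, with V6.5 ESC at 17.30. Pfkm, a phosphofructokinase subunit, was at 11.63 to 11.78 against 12.27 to 12.52 and 12.54, and Pgk1, phosphoglycerate kinase, at 16.44 to 16.75 against 16.92 to 17.35 and 17.18. In these 3 genes and Aldoc no deficient clone reached any control line or V6.5 ESC. For Aldoc the choice required this of the control lines. The other probe of Gpi1 differed from control lines by -0.23 and that of Pgk1 by -0.60. Tpi1 and Pgam1 were the other genes called lower in both comparisons, and Pgk1 was not called against V6.5 ESC with the deposited ratios (limma adjusted p = 0.0595). Ldhb was called only against V6.5 ESC (-1.17 ± 0.202).

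Ribosomal protein genes were mostly lower than in V6.5 ESC. Of 50 measured, 33 were called lower and none higher than in V6.5 ESC, beside 1.87% lower of all genes, with a median of -0.42. Against control lines 7 were called lower (14%, beside 31.2% of all genes) and 2 higher, with a median of -0.07 that was 0.01 without normalization between arrays and 0.03 with the processed signals, and 14 were called lower with plain means. The count of falls was 22 without clone 8, 1 without clone A6, 2 without clone B2 or control line 4, 3 without control line 3 and 4 without control line 5. Rpl22 was at 16.41, 16.29 and 16.37 in the deficient clones, 16.59 to 16.71 in the control lines and 16.81 in V6.5 ESC, and its other probe differed from control lines by 0.11 without a call. Rps25 was at 17.04, 16.84 and 16.77, above the control lines at 16.41 to 16.53 and below V6.5 ESC at 17.20, the last without a call in the deposited ratios. Pseudogene copies of these genes are near-identical, so the copy read by a probe is uncertain.

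Most fibroblast and feeder genes were called lower than in control lines. Of 48 measured, 28 were called lower and 6 higher (58.3% and 12.5%, beside 31.2% and 15.2% of all genes, and 20 and 11 without normalization between arrays). None was called against V6.5 ESC, beside 5.41% of all genes. In the differentiating clones against control lines 15 were lower, beside 628 of all 24966 genes. The summed level of the 48 was 17.55 to 17.74 on the log2 scale in the deficient clones, 18.18 to 18.76 in the control lines, 17.44 in V6.5 ESC and 21.80 in MEF. Col1a1, the main chain of type I collagen, was at 12.22, 12.31 and 12.32 in deficient clones, 14.59, 14.69, 14.17 and 13.53 in the control lines, 12.35 in V6.5 ESC and 18.39 in MEF. Its other 2 probes differed by -0.34 and 0.40, the last without a call. S100a4, a calcium-binding protein of fibroblasts, was at 11.85, 12.15 and 12.16 against 14.38, 14.79, 14.40 and 13.77. Mmp3, a secreted protease, fell from 11.22 to 12.19 in the control lines to 9.15 to 9.49, while MEF were at 7.23. The part of feeder RNA in other differences was not tested.

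Of 20 smooth muscle genes 11 were called lower and 3 higher (55% and 15%, beside 31.2% and 15.2% of all genes), 7 and 7 without normalization between arrays, 7 lower without clone 8 or without control line 3, with Tagln at 13.58, 14.01 and 13.88 against 15.58, 15.68, 15.23 and 14.65, and at 18.21 in MEF. Of 24 simple epithelium genes 13 were called lower and 2 higher (54.2% and 8.33%). The keratin Krt8 was at 11.78, 11.39 and 11.51 in the deficient clones, 14.93, 15.01, 14.48 and 14.07 in the control lines, 13.40 to 14.66 in the differentiating clones, 11.23 in V6.5 ESC and 8.31 in MEF. Another keratin, Krt19, was at 9.03 to 9.90 against 11.75 to 12.33, with V6.5 ESC at 10.17. None of the 5 keratins of the list was called against V6.5 ESC, beside 5.41% of all genes. MEF was low for Krt8 where it was high for Col1a1.

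**Figure D4:**
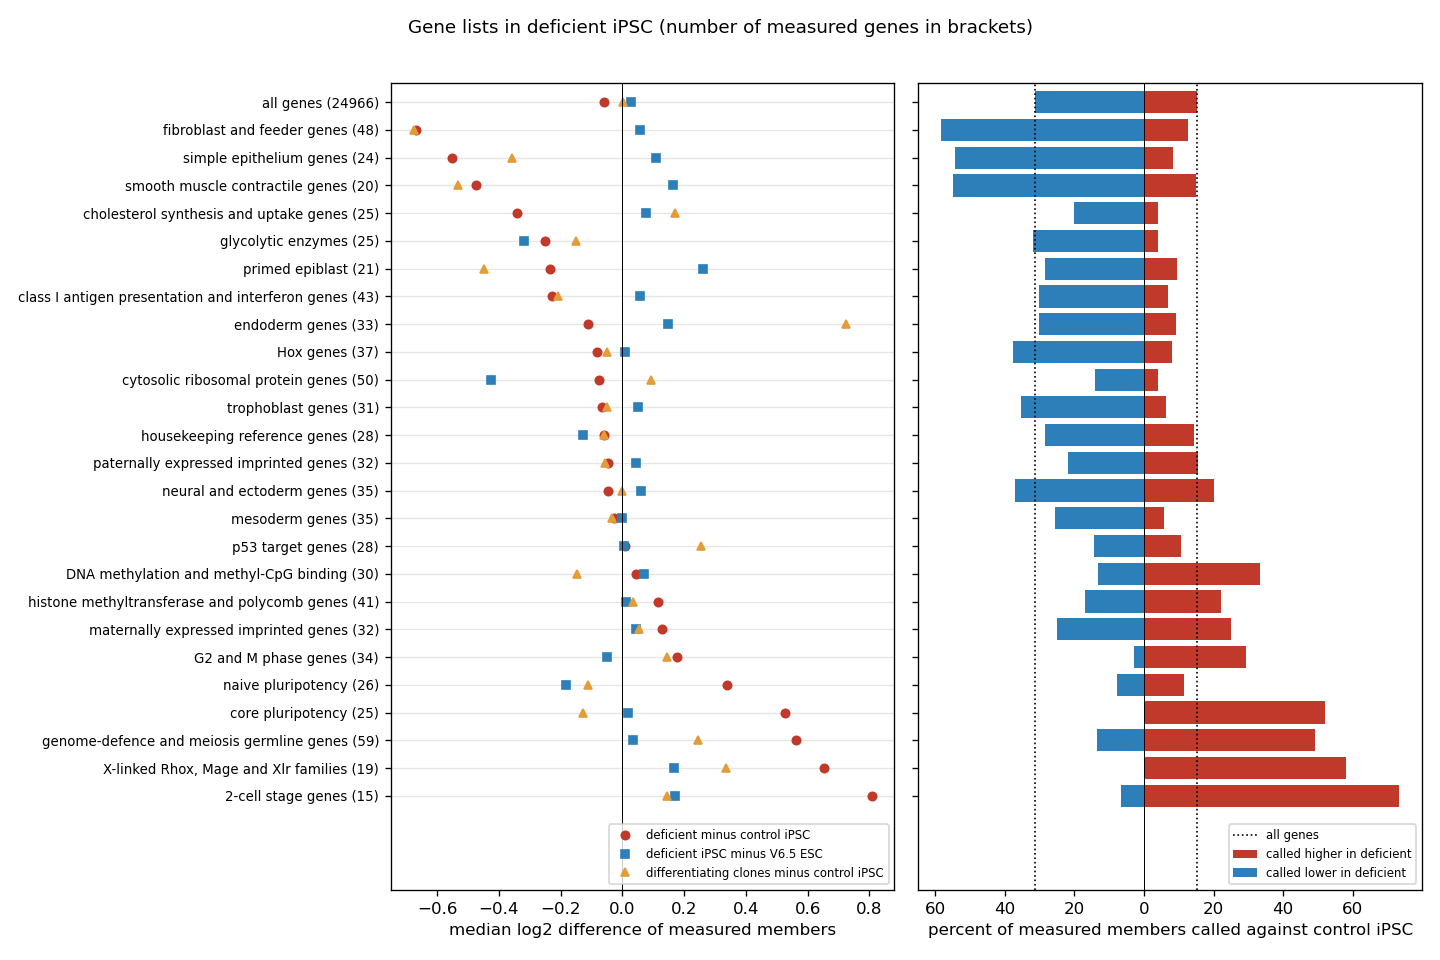
Left, median log2 difference of the measured members of 25 gene lists and of all genes in 3 comparisons. Right, percent of members called higher (red) or lower (blue) in deficient clones against control lines, with dotted lines at 15.2% and 31.2% for all genes. The 2-cell, X-linked and germline lists lie highest and the fibroblast list lowest against control lines, while most medians against V6.5 ESC are near 0, other than those of ribosomal protein and glycolytic genes.

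Cell cycle and early lineage genes moved less evenly. Of 34 genes of the G2 and M phases, 10 were called higher and 1 lower (29.4% and 2.94%, beside 15.2% and 31.2% of all genes). The rises were led by Top2a, the topoisomerase that untangles replicated chromosomes, at 13.77, 13.61 and 13.77 against 12.53 to 12.69, with V6.5 ESC at 13.83. Its other 2 probes differed by 0.98 and -0.11. Fgf8, a growth factor of the primitive streak, was at 8.89, 8.86 and 9.45 against 11.44, 12.30, 11.62 and 10.32, and V6.5 ESC was at 8.99. Its level was low in the differentiating clones too, at 9.29 to 9.36 (-2.09 ± 0.425, limma adjusted p = 0.0475). T, the mesoderm factor Brachyury, was at 7.49 to 7.59 against 8.04 to 8.68. In the endoderm list 3 of 33 were called higher and 10 lower in deficient clones (9.09% and 30.3%), so the share of falls was near that of all genes. In the differentiating clones 8 of the list were called higher and none lower, beside 571 higher and 628 lower of all 24966 genes. The deficient clones were not alike here, since among them Cubn, Amn and Gata6 were high in clone 8 alone. Of the 33, 6 were called lower without clone A6, without clone B2 or with plain means.

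In the remaining lists calls went both ways, and over all genes 15.2% were called higher and 31.2% lower. Class I antigen presentation and interferon genes had 3 of 43 called higher and 13 lower (6.98% and 30.2%), with 24 lower without control line 6. The share of falls was thus near that of all genes. H2-K1 and B2m, which form the class I molecule, were among the 13. Hox genes, the patterning factors of the body axis, had 3 of 37 higher and 14 lower (8.11% and 37.8%), with 9 lower with plain means. Neural and ectoderm genes had 7 of 35 higher and 13 lower (20% and 37.1%). Trophoblast genes had 2 of 31 higher and 11 lower (6.45% and 35.5%), with 5 higher without control line 6. Mesoderm genes had 2 of 35 higher and 9 lower (5.71% and 25.7%), with 4 higher without that line. Primed epiblast genes had 2 of 21 higher and 6 lower (9.52% and 28.6%), with 4 higher without it. Histone methyltransferase and polycomb genes had 9 of 41 higher and 7 lower (22% and 17.1%), with 4 higher without clone A6 and 15 without control line 6. The p53 targets had 3 of 28 higher and 4 lower (10.7% and 14.3%), with 5 higher without clone 8 and 6 without control line 6. Cholesterol genes had 1 of 25 higher and 5 lower (4% and 20%), with 16 lower without control line 6. Housekeeping genes had 4 of 28 higher and 8 lower (14.3% and 28.6%).

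Genes whose levels followed the day in every RNA included some of the largest differences. Besides H19 and Sltm, the rises were led by Gigyf2, a translational repressor, and Malat1, a nuclear noncoding RNA, and the falls by Krt8, Krt18, Cck and Epha1. Gigyf2 was at 11.29 to 11.68 in deficient clones, 11.52 in V6.5 ESC and 10.56 in MEF on the first day, and at 8.95 to 10.02 in control lines and 9.50 to 9.83 in differentiating clones on the second. Its other 4 probes differed by -0.34 to 0.15, so the rise is that of 1 probe. Malat1 was at 12.39 to 13.34, 13.10 and 14.96 on the first day and 10.23 to 11.30 and 10.60 to 11.06 on the second, and its other 3 probes differed by -0.03, 1.30 and 0.31. Cck, a peptide hormone, was at 7.42 to 8.23 on the first day and 8.93 to 10.26 on the second. Hoxc5 was at 9.27 to 9.34 in deficient clones and 10.28 to 10.33 in control lines (limma adjusted p = 0.000138), but lay above V6.5 ESC by 0.34 ± 0.0648 within arrays. For these genes group and scan day cannot be told apart.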

How the data were processed

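RNA was read on 18 arrays, 36 channels. Per the file headers, Agilent Feature Extraction 10.1.1.1 gave the mean intensity and local background of each spot, not normalized. The deposited matrix of values held log2 ratios whose scale, centring and direction are not stated. Against the arrays' own ratios its columns had slopes of size 1.00 to 1.35, medians of -0.01 to 0.01 and correlations by which all 18 arrays read deficient over other RNA, a direction taken from the values. The weakest correlations were -0.665 for clone A6 and -0.812 for clone B2, each on the array with V6.5 ESC. A minus sign marks Cy3 over Cy5. By correlation, the deposited ratios thus lay furthest from those used here on arrays that carry the comparison with V6.5 ESC. The submitters' processing notes name limma without a version. Dim and outlier marks are other deposited columns, per the file headers.

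In limma 3.58.1 (R 4.3.3, statmod 1.5.0), signals were corrected for background by normexp with an offset of 50. Loess then removed dye trends inside each array, and Aquantile scaling between arrays set the distribution of average signal equal, so a change shared by most genes cannot be seen. A probe was kept where at least 0.5 of the channels of 1 kind of RNA had it well above background (36964 of 41174), and the brightest stood for a gene. Each line got 1 value from a separate-channel fit (12 line terms and dye, correlation within spots 0.793). Lines (3 against 4) were compared by limma with Benjamini-Hochberg adjustment. Within arrays, ratios were fitted with dye over all 18 arrays, so these differences need not equal those of the line levels. Probe positions were taken as deposited, on mm7. Symbols were matched to RefSeq by accession (14235 genes), symbol (3038) or synonym (1473), and the deposited name stood for 6220.

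On simulated data without a day effect, the comparison of fitted line values made more false calls than its threshold allows and that of plain means close to it, so counts with plain means are given beside the main ones. The number of arrays limits the precision.

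Members, lists and tests were chosen with earlier results of these data known. The rule named the 4 Dnmt genes, Sox2, Nanog and Pou5f1, the top 8 rises and top 8 falls by size of non-overlapping genes also called in the same direction against V6.5 ESC, the top 4 each way of called genes split by day, and up to 3 called members per list by size. Clone and accession names were left out, 1 gene is not reported here, and other members were chosen after their values were seen. Alternatives were plain means, none or quantile between arrays, processed signals, no or a strict filter, the mean of all probes, no dye term, the deposited ratios and leaving out each line. Figures used matplotlib 3.10.9.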

Additional observations from a re-analysis of the deposited data

Results flagged for a closer look

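Among the 4 control lines, 8 of the 98 named genes had 1 line far from the other 3 by Dixon's criterion at the 95% level. Chance puts about 1 in 20 genes past it, and the share over all genes was not computed. Control line 6, the most distant control line over all genes, was high for 6 of the 8. It was at 10.28 for Dazl (others 8.30 to 8.40), 10.46 for Hormad1 (8.37 to 8.67), 9.92 for Mageb4 (8.09 to 8.34), 7.39 for Pramel6 (6.81 to 6.87), 10.61 for Usp17la (7.85 to 8.22) and 10.33 for Zscan4c (7.66 to 7.90). It was low for the glycolytic regulator Pfkfb3, at 11.79 (others 12.39 to 12.49). Control line 3 was low for Sec11a, a signal peptidase subunit, at 14.55 (others 14.84 to 14.89).

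Hoxa7, a posterior patterning factor, lay above all control lines in the deficient clones (0.70) and below them in the differentiating clones (-0.22). The difference between these was not tested, and the deficient clones were read on another day than both other groups.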

How the results depend on the processing

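Calls between deficient and control iPSC numbered 8853 to 13741 with 1 line left out, against 11577 with all. The other counts without 1 line were 359 to 613 genes of at least 1 log2 unit, 29.18 to 36.12% higher among called genes, 5301 to 6771 split by day, 384 to 1940 against V6.5 ESC, 94 to 719 against both, 1 to 3469 between differentiating clones and control lines and 0 to 143 in all 3 comparisons. Plain means gave 7596 called genes, 3771 split by day, 523 for differentiating clones and 8 in all 3. No normalization between arrays gave 1148 genes of at least 1 log2 unit, 97.22% higher and 607 called against both. Processed signals gave 1867 genes of at least 1 log2 unit, 3492 against V6.5 ESC, 1000 against both and 70 in all 3, and the deposited ratios gave 3698 against V6.5 ESC. Without the control line 5 array of weakest Cy3 signal, chosen after seeing the data, 2254 genes were called for differentiating clones and 64 in all 3. The cause of these shifts was not tested.

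Differences of 98 named genes gave 1567 values over all alternatives, of which 1483 kept direction and side of the threshold, 81 lost the call and 3 changed sign. The difference of Dnmt3b was 0.0055 without normalization between arrays and -0.6446 to 0.0529 with 1 line left out, the highest without clone 8, and with the mean of all probes that of Pidd1 was 0.2205. No paired analysis was possible because deficient and control lines share no slide, and replicate numbers count arrays within a line.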
